A study of Mus musculus with 4 samples.

Results

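Bile acids are made in hepatocytes from cholesterol, and their synthesis is held back by the nuclear receptor Fxr, which bile acids activate. The 10 genes described here are the core of that system on a liver array. Cyp7a1, Cyp8b1, Hsd3b7, Cyp27a1, Cyp7b1, Amacr, Slc27a5 and Baat encode 8 enzymes of synthesis and conjugation, Nr1h4 encodes Fxr, and Nr0b2 encodes Shp, the small partner that Fxr induces. They were chosen by name, and every probe set (a group of probes for 1 transcript) that names 1 of them alone was taken. This gave 10 of the 18193 genes on the array and 15 of its 45037 probe sets.

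RNA of whole livers was measured at 4 weeks of age in mice on a C57BL/6 background, 2 from Cnot3KO mice and 2 from Control mice, with 1 array per liver. Cnot3 belongs to the Ccr4-Not complex, the main deadenylase of the cell, which trims the poly(A) tail and so starts mRNA decay. In Cnot3KO mice a floxed Cnot3 was deleted by Cre recombinase that the albumin promoter drives, which directs the deletion to cells that express albumin. With a reporter the study saw recombination in most liver cells at 4 weeks. It takes the remaining cells to be non-hepatic ones, such as cholangiocytes. Which cells of these 2 livers kept the gene was not measured here. The labels call the Control mice wild type, and the methods of the study list several control genotypes with and without Cre or a floxed allele without tying one to these 2 livers. Sex is not in the labels. Nothing beyond a mouse number in the titles describes how the 2 livers of a group were related, and p-values measure only the spread between these arrays.

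In the classic pathway Cyp7a1 adds a hydroxyl group to cholesterol at the 7 alpha position and sets the rate, Hsd3b7 works on the product, and Cyp8b1 adds the 12 alpha hydroxyl group that makes cholic acid. The alternative pathway starts with Cyp27a1 at the side chain and goes on with Cyp7b1. Peroxisomal enzymes, among them Amacr, shorten the side chain, and Slc27a5 and Baat join bile acids to coenzyme A and then to taurine or glycine. Bile acids that return to the liver activate Fxr, which induces Shp. Shp then holds back Lrh-1 (Nr5a2) and Hnf4a on the Cyp7a1 and Cyp8b1 promoters.

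The promoters of Cyp8b1 and Nr0b2 are shown because both are textbook targets of Lrh-1 and lie on opposite sides of the loop, 1 in an enzyme gene and 1 in the gene of its repressor. RefSeq windows on GRCm38.p6 were found for 5 of the 10 genes, and the 250 bases before the start are printed, from chr9:121916306-121916555 on the minus strand for Cyp8b1 and from chr4:133553126-133553375 on the plus strand for Nr0b2. Capitals mark matches to CAAGGNCA (the Lrh-1 site), CAAAGTCCA (the Hnf4a site) or TATAAA (the TATA box), each searched on both strands.
Cyp8b1: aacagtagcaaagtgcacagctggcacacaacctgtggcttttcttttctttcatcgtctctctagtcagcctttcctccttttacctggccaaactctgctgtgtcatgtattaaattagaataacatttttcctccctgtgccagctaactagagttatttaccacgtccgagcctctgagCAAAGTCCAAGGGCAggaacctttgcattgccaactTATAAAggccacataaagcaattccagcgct
Nr0b2: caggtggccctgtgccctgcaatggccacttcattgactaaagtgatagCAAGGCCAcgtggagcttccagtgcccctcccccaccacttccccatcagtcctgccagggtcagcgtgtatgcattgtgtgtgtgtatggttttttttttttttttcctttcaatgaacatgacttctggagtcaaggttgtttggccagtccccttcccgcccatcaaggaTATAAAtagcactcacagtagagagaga
In Cyp8b1 the Hnf4a match began 67 bases before the start and overlapped the Lrh-1 match that began 60 bases before it, and the TATA box began 31 bases before it. Nr0b2 held an Lrh-1 match 201 bases and a TATA box 28 bases before its start. Among 32851 promoter windows of the same length, 5.53% held CAAGGNCA, 0.384% held CAAAGTCCA and 12.4% held TATAAA. Of the 5 windows found, 2 held CAAGGNCA, 1 held CAAAGTCCA and 2 held TATAAA. The half-site AGGTCA that many nuclear receptors bind occurred in 14.0% of all windows and in the Nr1h4 window, 214 bases before its start. The Fxr element, an inverted repeat of that half-site with 1 base between, had an exact match in 2 windows of the genome (0.00609%) and in 0 of these 5. A match is a stretch of letters and was not measured as a site.

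Levels are log2 of the deposited Robust Multi-array Average (RMA) intensities, and differences are Cnot3KO minus Control on that scale. The ± gives a difference's standard error (SE) from limma's moderated fit, with n = 2 arrays per group. That SE and the intervals below borrow part of their spread from all kept probe sets. They are therefore not a gene's own replicate spread. For Cyp8b1 the moderated SE was 1.12, and the unpaired test with equal variances gave 1.83. For Cnot3 the same values were 0.16 and 0.08. Folds are 2 to the power of the difference. Adjusted p is that of limma's moderated test after Benjamini-Hochberg adjustment over 38405 kept probe sets, and a gene is called at an adjusted p under 0.05. Levels of different genes are not compared, since probe sets differ in brightness. In livers with fewer cells of a type, and in livers whose cells hold less of an RNA, the array reads the same lower level.

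The targeted gene was lower on the brighter of its 2 probe sets. Cnot3 read there 5.15 and 5.30 on the Cnot3KO arrays and 5.99 and 6.04 on the Control arrays, a difference of -0.79 ± 0.16 (adjusted p = 0.0372) or 1.73-fold lower. Its other probe set differed by -0.40 ± 0.19 (adjusted p = 0.218). Which exons the probes match, and so whether they lie in the deleted part, is not given in the sources used here. Omitting any 1 array ended the Cnot3 call (-0.87 to -0.71, adjusted p of 0.0885 to 0.211), as did a prior that follows intensity (adjusted p = 0.0551).

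Median levels were 3.09 to 3.14 on the 4 arrays. Pearson's r across kept probe sets, which are not independent replicates, was 0.989 between the Cnot3KO arrays, 0.981 between the Control arrays and 0.937 to 0.948 between groups. The 6 measured hepatocyte markers of 8 listed averaged 13.31 on each Cnot3KO array, against 13.26 and 13.22 on the Control arrays, and 0 of them were called, with 1 on each side at an unadjusted p under 0.05. The tissue thus carried its defining markers in all 4 libraries, among them Alb at 13.74 and 13.79 in Cnot3KO and 13.84 and 13.73 in Control.

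Of the 10 genes, 4 were called lower in Cnot3KO livers, namely Cyp7b1, Slc27a5, Cyp27a1 and Baat, and 0 were called higher. Over all 16758 genes tested 4.64% were called lower and 12.2% higher. The 4 called genes are enzymes of the alternative pathway and of conjugation, and all 4 are among the 8 enzymes. Both receptors missed the threshold, as did Cyp7a1, Cyp8b1, Hsd3b7 and Amacr. Of these, Cyp7a1 (-1.38 ± 0.57) and Cyp8b1 (-1.62 ± 1.12) had larger differences than the called Cyp27a1 (-1.03 ± 0.20) and Baat (-0.90 ± 0.21). Their standard errors were larger too, so the calls do not set the alternative pathway apart from the classic one. At an unadjusted p under 0.05, limma placed 6 genes lower and 0 higher. The share of all genes under an unadjusted threshold is not given here, for limma or any other test. Nothing is therefore read from this or any other unadjusted count, in the 10 genes or in the lists.

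Differences were negative for 9 of the 10 genes and positive for Nr0b2 alone. Their median was -0.99, and the median of all kept genes was 0.00. In 8 genes both Cnot3KO arrays lay below both Control arrays, in 0 genes above, and in Cyp8b1 and Nr0b2 the groups overlapped. Over all genes 30.3% had both Cnot3KO arrays below and 34.8% above. By probe set, 5 of the 13 kept ones were called lower and 0 higher, against 4.78% lower and 8.48% higher over all probe sets. The other 2 probe sets, 1 for Cyp7b1 and 1 for Cyp27a1, did not pass the filter on low values, with levels of 0.92 and 0.94 in Cnot3KO and 1.16 and 1.06 in Control for Cyp7b1 and of 0.70 and 0.64 in Cnot3KO and 1.16 and 1.07 in Control for Cyp27a1.

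Leaving out 1 array at a time left 2 genes called lower, Cyp7b1 and Slc27a5, whichever array was left out. The unpaired test with equal variances named in the methods, which borrows no spread from other genes, placed 2 of the 10 genes lower at its unadjusted threshold and 0 after Benjamini-Hochberg adjustment.

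**Figure D1:**
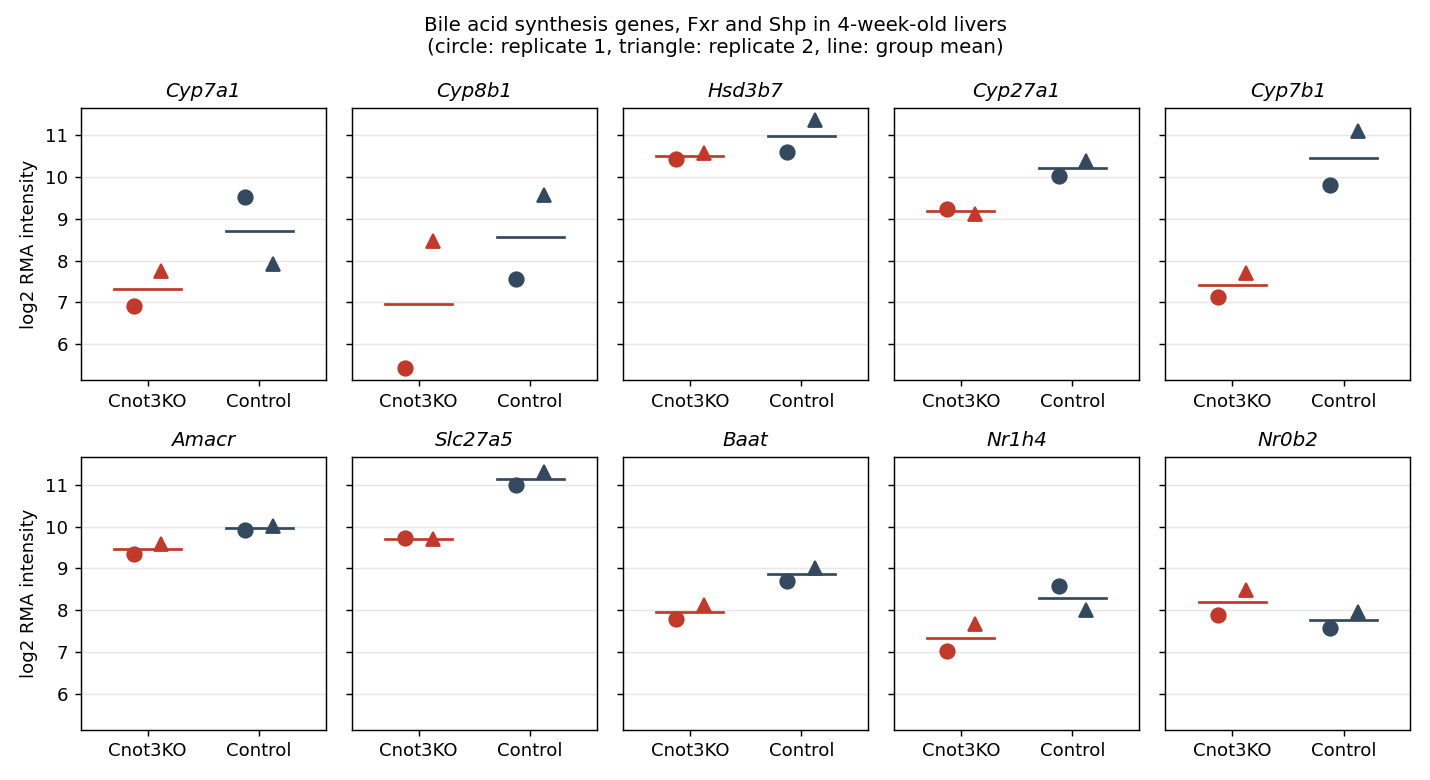
Each panel plots 1 gene's log2 RMA intensity, Cnot3KO in the left column and Control in the right, with a circle for replicate 1, a triangle for replicate 2 and a line at the group mean. Cyp7b1 and Slc27a5 show wide gaps between groups, and Cyp8b1 and Nr0b2 overlap.

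Cyp7a1, the rate-limiting enzyme, did not pass the test. Its brighter probe set read 6.92 and 7.74 in Cnot3KO livers, against 9.52 and 7.91 in Control livers. The groups did not overlap, but the second Cnot3KO array and the second Control array lay close together and the first Control array stood above the other 3. The difference was -1.38 ± 0.57 with a 95% interval of -2.82 to 0.06 (adjusted p = 0.174). A second Cyp7a1 probe set read 4.75 and 6.48 in Cnot3KO livers and 6.59 and 6.26 in Control livers. There the first Cnot3KO array was low and the other 3 were alike, and the difference was -0.81 ± 0.56 (adjusted p = 0.372). Without the second Cnot3KO array the second probe set was called at -1.68 (adjusted p = 0.0284), and without the first it stood at 0.05 (adjusted p = 0.946).

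Cyp8b1, the 12 alpha hydroxylase that sets the share of cholic acid, varied more within groups than between them. It read 5.43 and 8.47 in Cnot3KO livers and 7.55 and 9.58 in Control livers. The second array exceeded the first by 3.04 in Cnot3KO and by 2.03 in Control, so the groups overlapped. The difference was -1.62 ± 1.12, with a 95% interval of -4.44 to 1.21 (adjusted p = 0.378). Leaving out 1 array moved it between -3.13 and -0.10.

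Hsd3b7, which acts after both hydroxylations at the 7 alpha position, read 10.43 and 10.58 in Cnot3KO livers and 10.61 and 11.37 in Control livers. Its groups were separated by less than the gap between the Control arrays. The difference was -0.49 ± 0.28, with an interval of -1.19 to 0.22 (adjusted p = 0.299).

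The alternative pathway held the largest difference of the 10 genes. Cyp7b1, the oxysterol 7 alpha hydroxylase, read 7.14 and 7.70 in Cnot3KO livers, against 9.81 and 11.11 in Control livers. Both Cnot3KO arrays were more than 2 log2 units under the lower Control array. The difference was -3.04 ± 0.46, or 8.23-fold lower, with an interval of -4.20 to -1.88 (adjusted p = 0.0172). The second kept probe set gave 6.26 and 6.64 in Cnot3KO and 8.91 and 9.94 in Control, a difference of -2.97 ± 0.37 (adjusted p = 0.0111). These 2 probe sets lay within 0.07 of each other. With each array left out in turn the brighter one stayed called, at -3.69 to -2.39 and adjusted p of 0.0234 to 0.0460.

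Cyp27a1, the mitochondrial sterol hydroxylase that opens the alternative pathway and also works on the side chain in the classic one, read 9.25 and 9.11 in Cnot3KO livers and 10.03 and 10.39 in Control livers. The arrays of each group lay close together. The difference was -1.03 ± 0.20, or 2.05-fold lower, with an interval of -1.52 to -0.54 (adjusted p = 0.0294). The call was lost when any 1 of the 4 arrays was left out, at -1.21 to -0.85 and adjusted p of 0.0550 to 0.125.

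Amacr, the peroxisomal racemase that turns the side chain of bile acid precursors to the form that can be shortened, read 9.34 and 9.57 in Cnot3KO livers, against 9.92 and 10.004 in Control livers. The groups did not overlap. The difference was -0.50 ± 0.17 with an interval of -0.94 to -0.07, and the adjusted p was 0.121.

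Both conjugation enzymes were called lower. Slc27a5, the bile acid coenzyme A ligase, read 9.73 and 9.70 in Cnot3KO livers and 10.99 and 11.30 in Control livers. The Cnot3KO arrays differed by less than 0.1 and both lay over 1 log2 unit under Control. The difference was -1.44 ± 0.18, or 2.71-fold lower, with an interval of -1.90 to -0.98 (adjusted p = 0.0120). It stayed called with each array left out, at -1.59 to -1.28 and adjusted p of 0.0392 to 0.0490.

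Baat, which joins the activated bile acid to an amino acid, was called on 1 of its 2 probe sets. The brighter one read 7.80 and 8.11 in Cnot3KO livers, against 8.69 and 9.02 in Control livers, a difference of -0.90 ± 0.21 or 1.87-fold lower (adjusted p = 0.0478). The other read 6.07 and 6.29 in Cnot3KO livers and 6.75 and 7.26 in Control livers, with -0.82 ± 0.23 (adjusted p = 0.0761). On both probe sets the groups were apart, by less than 1 log2 unit. The call of the brighter one was lost when any 1 array was left out (adjusted p from 0.0825 to 0.224). It was also lost when arrays were centred on their medians (0.0507), with no filter (0.0505) and with a prior that follows intensity (0.0508).

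Nr1h4, the gene of Fxr, read 7.02 and 7.66 in Cnot3KO livers and 8.57 and 8.01 in Control livers. The groups did not overlap, although the second arrays of the groups were nearer to each other than the first. The difference was -0.95 ± 0.30 with an interval of -1.71 to -0.19, and the adjusted p was 0.102.

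Nr0b2, the gene of Shp, was the only one of the 10 with a positive difference. It read 7.89 and 8.49 in Cnot3KO livers, against 7.58 and 7.95 in Control livers. The first Cnot3KO array lay just under the second Control array. The difference was 0.42 ± 0.27 with an interval of -0.24 to 1.09 (adjusted p = 0.330).

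**Figure D2:**
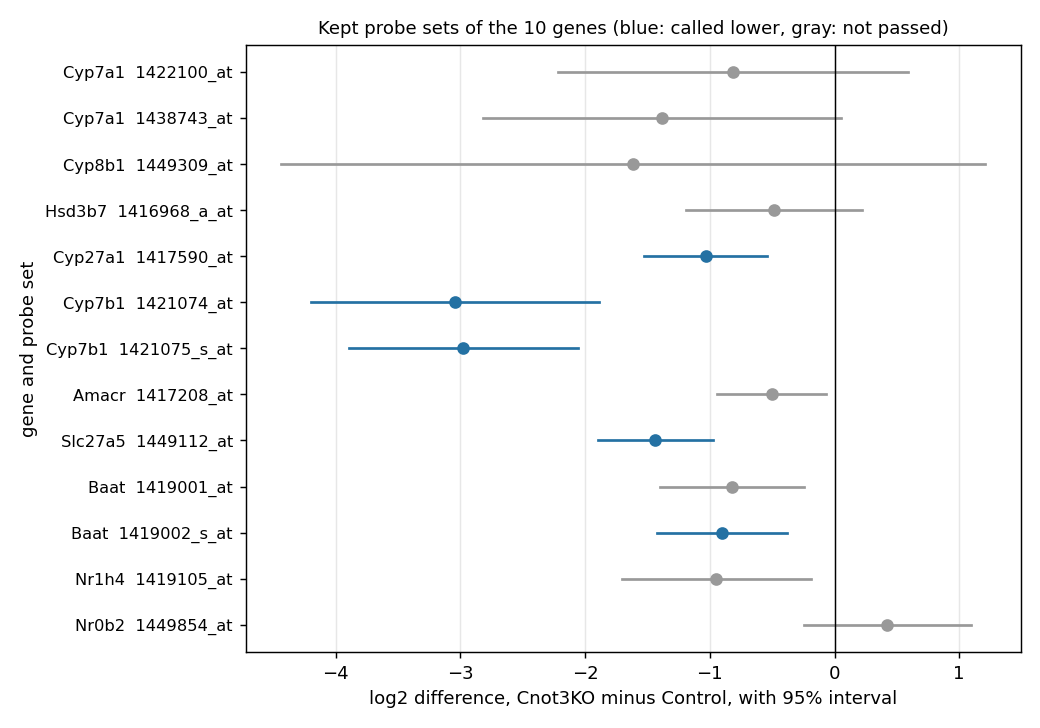
Log2 differences, Cnot3KO minus Control, of the 13 kept probe sets of the 10 genes are plotted with 95% intervals of limma's moderated fit. Points are blue where limma called the probe set lower and gray where it did not pass. The 5 blue points are both Cyp7b1 probe sets, Slc27a5, Cyp27a1 and 1 of Baat, and the interval of Cyp8b1 is the widest.

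Cyp7a1 and Cyp8b1 are known to follow the time of day and feeding, and 2 further lists were read for that reason. In the list of 15 clock genes, 14 were measured and 0 were called by limma, with 2 lower and 0 higher before adjustment at p under 0.05. In 12 of the 14 the groups overlapped. Of all genes, 4.64% were called lower and 12.2% higher, and 30.3% had both Cnot3KO arrays below both Control arrays and 34.8% above. The gap between replicates was large. Dbp, an output gene of the clock, read 7.41 and 5.49 in Cnot3KO and 10.37 and 3.64 in Control. Arntl, which encodes Bmal1, read 5.02 and 6.27 in Cnot3KO and 2.40 and 7.24 in Control. Nr1d2, a repressor within the clock, read 8.10 and 5.83 in Cnot3KO and 9.40 and 5.85 in Control. In all 3 the first array differed from the second in the same direction in both groups. Cyp7a1 on its brighter probe set followed neither direction in both groups, since its first array was the lower one in Cnot3KO and the higher one in Control.

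Cholesterol synthesis genes also moved with the replicate number. The second array exceeded the first in 18 of 18 measured genes in Cnot3KO (median 0.99) and in 16 of 18 in Control (median 0.67), and the same direction in both groups was seen in 6 of the 10 bile acid genes. These were Cyp8b1, Nr0b2, Hsd3b7, Amacr and, among the called genes, Cyp7b1 and Baat. The share of all genes with that direction in both groups was not computed, so nothing is read from the count of 6. Fdps, a synthase of the isoprenoid steps, read 5.96 and 7.54 in Cnot3KO and 5.59 and 8.41 in Control. Idi1, the isomerase before it, read 5.41 and 7.27 in Cnot3KO and 7.19 and 8.47 in Control. Sqle, squalene epoxidase, read 5.36 and 6.95 in Cnot3KO and 3.86 and 5.97 in Control. Between groups 1 of the 18 was called, beside 4.64% of all genes called lower and 12.2% higher. It was Stard4, a carrier of cholesterol in the cytosol, which was called lower. Stard4 read 4.75 and 5.82 in Cnot3KO and 7.97 and 7.62 in Control, at -2.51 ± 0.38 (adjusted p = 0.0169), with 1 of its 2 other probe sets called as well. That call was lost without either Control array (adjusted p of 0.0855 without the first and 0.0566 without the second). The hour at which the livers were taken is not given in the sources used here, and the part of these gene groups in the spread of the 10 genes was not tested.

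**Figure D3:**
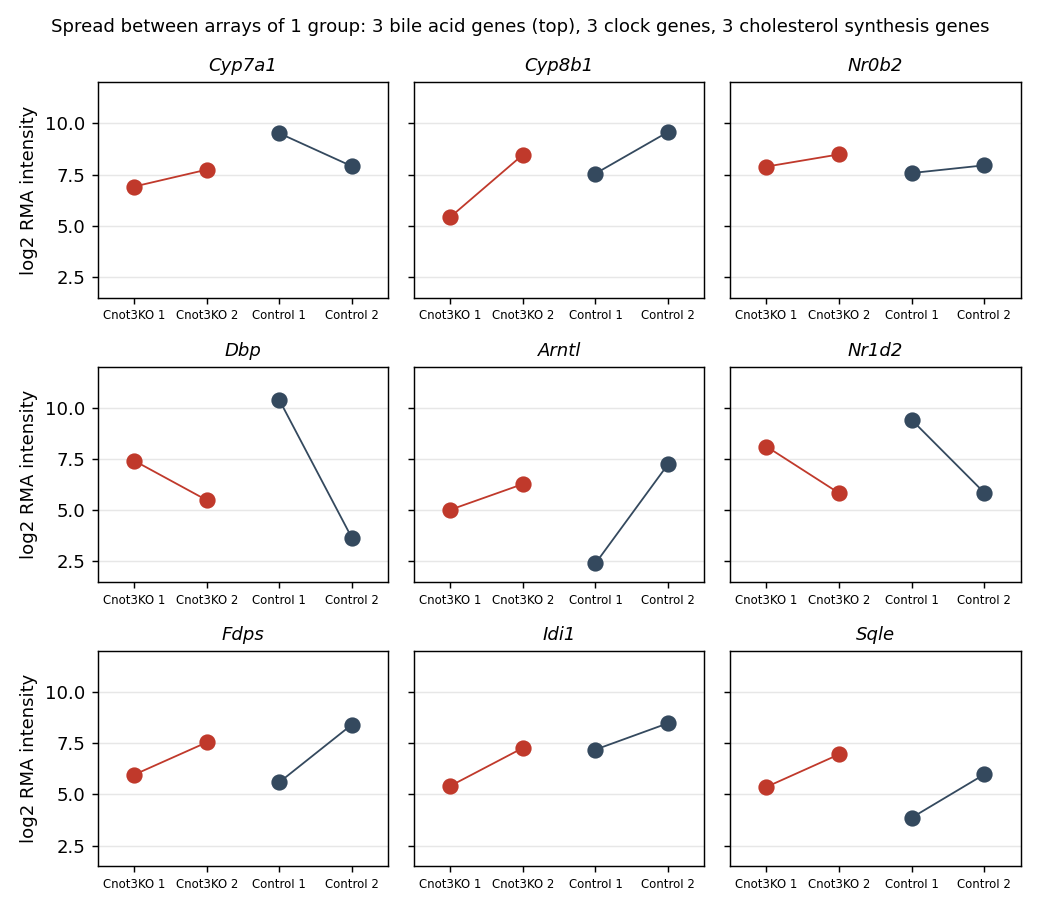
Log2 RMA intensity on each array, Cnot3KO on the left and Control on the right of every panel, with a line joining the 2 arrays of a group. Cyp8b1 and all 3 cholesterol synthesis genes are higher on the second array in both groups, and Dbp and Nr1d2 are lower there.

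The 16 measured genes of a list of 17 other enzymes of bile acid synthesis lay on both sides of 0. Limma called 4 lower and 1 higher, 11 did not pass, and the median difference was -0.29. Over all genes 4.64% were called lower and 12.2% higher, so the single higher gene is a smaller share than that of all genes. Akr1c14, a hydroxysteroid dehydrogenase, read 7.68 and 8.06 in Cnot3KO and 10.49 and 9.59 in Control, at -2.17 ± 0.34 (adjusted p = 0.0181). Akr1c6, of the same family, read 10.07 and 10.66 in Cnot3KO and 11.99 and 12.13 in Control, at -1.70 ± 0.24 (adjusted p = 0.0152). In both the Cnot3KO arrays lay more than 1 log2 unit under Control. Abcd3, which carries bile acid precursors into peroxisomes, read 9.63 and 9.89 in Cnot3KO and 10.96 and 11.06 in Control, at -1.25 ± 0.18 (adjusted p = 0.0151), but its other probe set, at -0.41, did not pass.

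Slc27a2, a coenzyme A ligase of very long fatty acids and bile acid precursors, read 11.37 and 11.06 in Cnot3KO and 12.39 and 11.96 in Control, at -0.97 ± 0.22 (adjusted p = 0.0490). Acnat2, a peroxisomal acyltransferase related to Baat, was the gene that rose. It read 8.02 and 8.57 in Cnot3KO and 4.93 and 5.97 in Control, at 2.84 ± 0.39 (adjusted p = 0.0142). Acox2, the oxidase of the side chain, read 10.47 and 10.42 in Cnot3KO and 9.25 and 9.79 in Control, a difference of 0.93 ± 0.23 whose adjusted p was 0.0563. With arrays left out in turn the Acnat2 call held each time, and that of Akr1c14 was lost without the first Cnot3KO array (adjusted p = 0.0560). Akr1c6 lost its call without either Control array (0.0653 without the first and 0.0596 without the second), Abcd3 without any 1 but the second Cnot3KO array (up to 0.0786), and Slc27a2 without any 1 array (0.0575 to 0.197).

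Of 15 transporters of bile acids and bile lipids, all measured, 2 were called lower, 1 was called higher and 12 did not pass, with a median of -0.44. Beside 4.64% lower and 12.2% higher over all genes these are small counts, and nothing is read from them about transporters as a group. Slco1a1, an uptake carrier of the basolateral membrane, read 3.21 and 3.08 in Cnot3KO and 9.82 and 9.63 in Control, at -6.58 ± 0.17 (adjusted p = 0.00107). Slco1b2, another uptake carrier, read 9.32 and 9.18 in Cnot3KO and 11.03 and 10.75 in Control, at -1.64 ± 0.18 (adjusted p = 0.00923), and of its 3 other kept probe sets 1 was called lower and 2 did not pass. Slc51b, a subunit of the exporter to blood that Fxr induces, read 7.07 and 7.04 in Cnot3KO and 3.38 and 3.90 in Control, at 3.42 ± 0.22 (adjusted p = 0.00422). For these 3 genes the gap between groups was wider than the gap between replicates, and the calls held with each array left out. Slc51a, the gene of the other subunit of the Slc51b exporter, read 2.69 and 2.51 in Cnot3KO and 2.70 and 2.90 in Control. It differed by -0.20 ± 0.18 (adjusted p = 0.471) and lay under the array medians of 3.09 to 3.14. Slc10a1, the main sodium-dependent uptake carrier, differed by -0.79 ± 0.23 (adjusted p = 0.0800), and Abcb11, the export pump of the canalicular membrane, by -0.45 ± 0.17 (adjusted p = 0.148).

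Since Nr1h4 and Nr0b2 did not pass, the other known Fxr targets were read beside them. Of 11 listed, 10 were measured and 3 were called higher and 0 lower by limma, and before adjustment 5 were higher and 1 was lower at p under 0.05, with a median of 0.54. Slc51b was 1 of the 3. Apoc2, the cofactor of lipoprotein lipase, read 12.30 and 12.23 in Cnot3KO and 10.85 and 10.39 in Control, at 1.65 ± 0.21 (adjusted p = 0.0120). Osgin1, a gene of the response to oxidative stress as well, read 9.52 and 9.87 in Cnot3KO and 8.21 and 8.35 in Control, at 1.42 ± 0.19 (adjusted p = 0.0140). The Osgin1 call was lost without the second Cnot3KO array (adjusted p = 0.0525) or the first Control array (adjusted p = 0.0638), and the other 2 held each time. Abcb11 and Slc51a, also targets, had negative differences and did not pass, and so the list had members on both sides. Over all genes 12.2% were called higher.

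Of 20 listed regulators of bile acid synthesis, 17 were measured, 3 were called lower and 0 higher, with 5 lower and 0 higher at an unadjusted p under 0.05, and the median was -0.13. Over all genes 4.64% were called lower and 12.2% higher. Klf15, a factor of amino acid and bile acid metabolism, read 8.25 and 8.44 in Cnot3KO and 9.75 on both Control arrays, at -1.40 ± 0.17 (adjusted p = 0.0104). Rxra, the partner of Fxr and many other nuclear receptors, read 7.66 and 7.58 in Cnot3KO and 8.80 and 8.56 in Control, at -1.07 ± 0.17 (adjusted p = 0.0206), while 2 other Rxra probe sets did not pass. Fgfr4, the receptor through which the gut hormone Fgf15 represses Cyp7a1, read 5.68 and 5.86 in Cnot3KO and 6.76 and 6.62 in Control, at -0.92 ± 0.17 (adjusted p = 0.0285), with 4 other probe sets that did not pass. The Fgfr4 call was lost without any 1 array (adjusted p of 0.0616 to 0.161), that of Rxra without any 1 but the second Control array (0.0721 to 0.0936), and that of Klf15 without the first Cnot3KO array (0.0523).

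The factors whose site letters stand in the Cyp8b1 and Nr0b2 windows above were near the threshold or far from it. Nr5a2, the gene of Lrh-1, read 6.87 on both Cnot3KO arrays and 7.73 and 7.48 in Control, at -0.74 ± 0.17 (adjusted p = 0.0508). A dimmer probe set of it was called at -0.83 (adjusted p = 0.0299). Its other kept probe sets, at -0.78 (adjusted p = 0.0694) and -0.38 (adjusted p = 0.192), did not pass. Hnf4a differed by -0.25 ± 0.17 (adjusted p = 0.372). Zfp36l1, an RNA-binding protein known to bring Cyp7a1 mRNA to decay, read 8.25 and 8.59 in Cnot3KO and 7.73 and 8.74 in Control, and its groups overlapped (0.18 ± 0.36, adjusted p = 0.764).

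**Figure D4:**
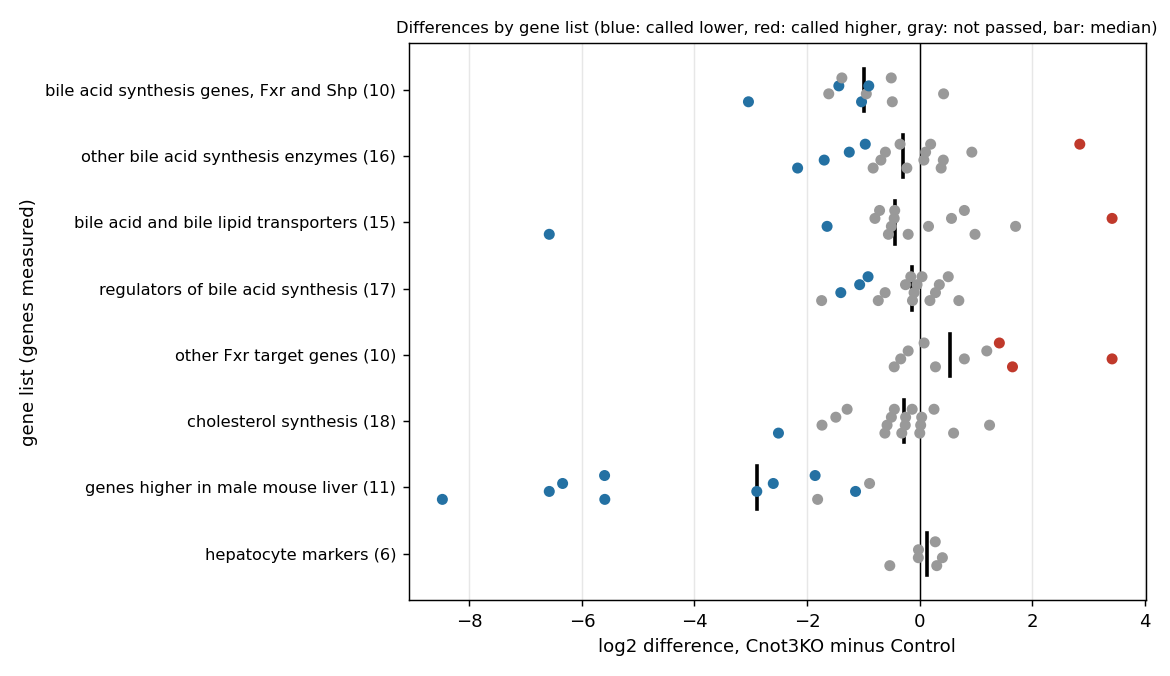
Log2 differences, Cnot3KO minus Control, of the measured genes in each list, 1 point per gene, blue where called lower, red where called higher and gray where not passed, with a bar at the median. The median is -0.99 for the bile acid synthesis genes with Fxr and Shp, -0.29 for the other synthesis enzymes, 0.54 for the other Fxr targets and -2.89 for genes higher in male liver.

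Cyp7b1 is expressed more in male than in female mouse liver, and other genes with that bias were read beside it. Of 12 listed, 11 were measured, 9 were called lower and 0 higher, with 10 lower and 0 higher at an unadjusted p under 0.05, and the median was -2.89, against 4.64% of all genes called lower. Hsd3b5, a steroid dehydrogenase of male liver, read 1.52 and 2.78 in Cnot3KO and 10.44 and 10.82 in Control, at -8.48 ± 0.43 (adjusted p = 0.00317). Its first Cnot3KO value lay under the 20th percentile of that array (1.54), so the size of this difference is not well measured. Mup3, a urinary protein, read 5.22 and 7.17 in Cnot3KO and 12.28 and 12.80 in Control, and Ugt2b38, a glucuronosyltransferase, read 2.16 and 2.29 in Cnot3KO and 7.59 and 8.05 in Control. A dimmer Mup3 probe set was called lower at -1.92. Slco1a1, given above, belongs to the list too. Probes of the Mup and Ugt2b families can bind close relatives of the named gene, and these 2 levels are uncertain to that extent.

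Of 13 genes higher in female liver 7 were measured, 0 were called lower and 1 higher, with 1 on each side before adjustment at p under 0.05. The shares over all genes were 4.64% called lower and 12.2% called higher. The gene called higher was Cyp17a1, a steroid hydroxylase, at 7.08 and 9.77 in Cnot3KO and 4.35 and 4.43 in Control (4.03 ± 0.83, adjusted p = 0.0368), and the call was lost without either Control array (adjusted p of 0.137 without the first and 0.118 without the second). Sex-linked genes were read beside these. Eif2s3y, on the Y chromosome, read 7.34 and 7.57 in Cnot3KO and 7.90 and 7.73 in Control, and Xist, which is transcribed from the inactive X chromosome, read 2.14 and 1.99 in Cnot3KO and 2.05 and 2.33 in Control. Xist thus lay under the median of each array (3.09 to 3.14), and by these genes all 4 livers read as male. Of the 4 measured sex-linked genes, 0 were called by limma and 0 passed an unadjusted p under 0.05. The part of the male-biased genes in the Cyp7b1 difference was not tested.

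Markers of other liver cells moved too. Of 10 cholangiocyte markers 8 were measured and 6 were called higher, and the list averaged 5.97 and 5.27 in Cnot3KO and 2.69 and 2.65 in Control. Prom1 read 9.20 and 9.06 in Cnot3KO and 4.48 and 3.09 in Control, and Epcam read 7.64 and 6.37 in Cnot3KO and 3.43 and 3.21 in Control. Both were higher on each Cnot3KO array than on each Control array, and the Epcam call was lost without the first Control array (adjusted p = 0.0551). On a dimmer Epcam probe set the difference was 0.24, which missed the threshold (adjusted p = 0.428). Cftr, a channel of the bile duct epithelium, stayed near the lowest levels of the array at 1.87 and 1.55 in Cnot3KO and 1.43 and 1.41 in Control. Of 9 macrophage markers 3 were called higher, with averages of 8.40 and 8.66 in Cnot3KO and 7.61 and 7.43 in Control. Of 7 stellate cell markers 4 were called higher, with averages of 7.85 and 7.53 in Cnot3KO and 7.03 and 6.70 in Control. The called ones were Col1a1, Col3a1, Dcn and Pdgfrb. Lrat (-0.19), Des (0.07) and Reln (0.22) did not pass, and their groups overlapped. Of 6 endothelial markers limma called 0, and 0 passed an unadjusted p under 0.05. Of 4 measured erythroid markers 2 were called lower. Over all genes 12.2% were called higher and 4.64% lower. With the arrays centred on the 6 hepatocyte markers instead, the same count of 4 genes was called lower and the median of the 10 genes was -1.06. Such centring moves every gene alike, and the part of other cell types in the differences of the 10 genes was not tested.

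The genes whose pattern over the 4 arrays lay nearest to each called gene were found by Euclidean distance of log2 values centred on the gene's own mean, which is a description with 4 arrays only. For Cyp7b1 they were Mup5 (0.384), Gm16551 (0.538) and Egfr (0.654). Mup5 read 1.11 and 1.64 in Cnot3KO and 3.84 and 4.66 in Control. Its first Cnot3KO value lay under the 20th percentile of that array (1.54), and Mup probes can bind close relatives. The distance of Mup5 is uncertain to that extent. Egfr, the receptor of epidermal growth factor, read 7.23 and 7.34 in Cnot3KO and 10.11 and 10.61 in Control, and 2 of its 6 kept probe sets did not pass. For Slc27a5 they were Gas1 (0.114), Ccdc30 (0.126) and Gulo (0.142), the last of which encodes the final enzyme of vitamin C synthesis. Cyp27a1 had Cpn2 (0.0445), Slc36a1 (0.0885) and Sec14l4 (0.114) nearest to it, and Baat had Msrb1 (0.0527), Xpnpep3 (0.0656) and Ptms (0.0657).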

How the data were processed

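Total RNA of 4 livers was measured on Affymetrix GeneChip arrays for mouse. The deposited values are linear intensities. The authors computed them with RMA (named in the submitters' processing notes), a method that corrects background, normalizes between arrays and gives 1 value per probe set. Its version is not given in the sources used here. RMA compresses differences of dim probe sets, and the number of arrays limits the precision. Here the values, from 1.27 to 16933, were turned to log2. Kept were 38405 of 45037 probe sets, those that exceeded the 20th percentile on 1 or more of the 4 arrays. By annotation 34945 name a single gene, 932 name several and 9160 name none, after platform annotation checked against a table of mouse genes (0 symbols changed). A gene is represented by its brightest kept probe set by mean log2. Groups were compared 2-sided with lmFit and eBayes (limma 3.58.1, R 4.3.3) on 5.40 degrees of freedom, 3.40 of them from the prior, with Benjamini-Hochberg adjustment over kept probe sets. The fit was run on simulated normal noise drawn from its own fitted prior, without shifts shared between arrays. That checks the code and does not show how the test behaves with such shifts. Tables and figures were made in Python 3.11.15 (pandas 2.3.3, numpy 2.4.6, matplotlib 3.10.9).

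The members, lists and tests were chosen with earlier results of these data known. Named were the 10 genes, Cnot3, Zfp36l1, called genes with the largest difference in each list (up to 4 each way), clock, cholesterol and sex-linked genes, and the 3 nearest genes of each called gene. Nr5a2, Hnf4a, Acox2, Slc10a1, Abcb11, Slc51a and Cftr were added after their values were seen. List genes with no kept probe set naming them alone are not analysed here. Alternatives were other filters, scalings, priors, probe set types, thresholds and tests, the replicate number as a block, and each array left out in turn.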

Additional observations from a re-analysis of the deposited data

How the results depend on the processing

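With each array left out in turn, the lone array left in a group is assumed to vary like the other group. The count of the 10 genes called lower (4 with all arrays) was then 2 to 2, and that of probe sets called lower (5 with all arrays) was 3 to 4. Under the methods' t-test with Benjamini-Hochberg adjustment 0 genes and 0 probe sets were called lower, and at an adjusted p under 0.01 again 0 genes and 0 probe sets. Of the genes' probe sets other than the _x_at and _s_at ones, which are fewer, 3 were called lower. The second Cyp7a1 probe set ranged from -1.68 to 0.0523 with an array left out, and Zfp36l1 from -0.32 to 0.69. The causes were not tested. The median difference of the 10 genes stayed below 0 under each alternative in which it was computed. The references used for centring differed between Cnot3KO and Control by -0.04 (array medians), 0.07 (ribosomal protein genes) and 0.07 (hepatocyte markers), and centring subtracts these from every difference.

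The replicate number is shared between groups in the labels, and the deviations of same-numbered arrays correlated at r = 0.232 across 38405 probe sets, but with 2 pairs this does not show that the numbers pair the livers. With the replicate block 4 genes and 5 probe sets were called lower, Cyp8b1 was called (-1.62 ± 0.29, adjusted p = 0.0479) and Cyp27a1 (adjusted p = 0.0502) and Cnot3 (adjusted p = 0.0517) were not.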
